A study of Mus musculus with 9 samples.

Results

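RNA precipitated with an antibody to Pum2 was compared with RNA precipitated with nonspecific IgG, 3 arrays against 3, out of the 9 arrays of the series. All 6 precipitates were made from embryonic cortex of CD1 mice, wild type, taken at E12/13, when the radial precursors that line the ventricles begin to make neurons. The Pum2 group received a rabbit antibody to Pumilio2 from MBL and the control group normal rabbit IgG from Millipore, both used with the Magna RIP kit. No animal carried a mutation or a treatment. RNA was amplified with the GeneChip Pico kit and read on Mouse Gene 2.0 ST arrays. The remaining 3 arrays hold total input RNA of such cortices. They enter the estimate of spread, the mean signal by which features are chosen and genes called brighter, and the values given as input. The comparison asks which transcripts gave a higher, and which a lower, signal with the antibody to Pum2 than with IgG, the antibody background. The RNA was amplified and the arrays were scaled to each other, so a difference is relative. A lower signal does not say that less of a transcript was recovered. Of 41345 features on the array, those with exactly 1 gene symbol were used, with 1 feature per gene, and this gave 22180 genes. The labels call the arrays of a group biological replicates without saying how many embryos each holds, so the p-values measure the spread between these preparations.

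Pum2 is one of the mammalian Pumilio proteins, which bind short elements beginning with UGUA, mostly in the untranslated region behind the stop codon. Bound transcripts are usually held back from translation or lose their poly(A) tail through the deadenylase complex that Pumilio proteins recruit. In neural precursors Pumilio proteins are known to work with 4E-T, a protein that binds the cap-binding factor eIF4E, to keep transcripts of neuronal genes silent. An antibody to such a protein also retains RNA that sticks to the beads, and nonspecific IgG measures that part.

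Values below are log2 signals, and a difference is Pum2 minus IgG on that scale, given ± SE with n = 3 arrays per group. A gene was called higher or lower at a limma adjusted p under 0.05. By this rule 4296 genes (19.4%) were higher with Pum2 and 2519 (11.4%) lower, 30.7% in either direction. In 5754 genes (25.9%) all 3 Pum2 arrays stood above all 3 IgG arrays, and in 3415 (15.4%) all stood below. Most differences were small on the upper side and reached further on the lower side. At least 1.5-fold were 1448 genes (6.53%) higher and 1106 (4.99%) lower, at least 2-fold 145 (0.654%) higher and 382 (1.72%) lower, and at least 3-fold 2 (0.00902%) higher and 116 (0.523%) lower. The median over all genes was 0.043, with the 10th to 90th percentile from -0.37 to 0.49. The share of calls that were higher, 63.0%, moved with the scaling of the arrays. It was 79.1% when all 41345 features were quantile-normalized together, which moved the median of all genes to 0.192, and 46.9% when each array was centred on its brighter genes, which moved that median to -0.051.

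How often a gene was called depended on its signal. Of the 11090 genes at or above the median level of 6.08, 34.1% were higher and 18.0% lower, against 4.61% and 4.70% of the 11090 dimmer genes. From the dimmest to the brightest quartile, the share called higher went through 1.80%, 7.41%, 29.7% and 38.5%, and the share called lower through 3.77%, 5.63%, 16.1% and 19.9%. Most of the gene classes described below consist of brighter genes, so 34.1% and 18.0% are the closer background for them. The length of the gene in the genome showed no such order. Among 10519 protein-coding genes at or above the median level, Spearman's rho of genomic span with the difference was -0.007, a value across genes, which are not independent. Protein-coding genes were called higher in 22.3% and lower in 10.2%. On the deposited scale long noncoding RNAs went the other way, with 33 of 1926 higher (1.71%) and 271 lower (14.1%). Only 268 of them lay at or above the median level, against 10519 of 18964 protein-coding genes, so 4.61% and 4.70% are their closer background. The opposite-strand ones among them had 21 higher and 11 lower calls after quantile normalization over all features.

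Markers were read to see which cells the RNA came from. Of 12 listed radial precursor markers 11 were measured, and all 11 lay at or above the median level, as did all 6 of intermediate progenitors and all 9 of young cortical neurons. Beside the counts below stand 34.1% higher and 18.0% lower among all brighter genes. Radial precursor markers had 5 higher calls of 11 (45.5%), among them Sox2 (0.73 ± 0.07, adjusted p = 5.1e-05) and Hes1 (0.64 ± 0.07). Pax6 (0.004 ± 0.07) and Fabp7 (0.001 ± 0.11) did not pass. Intermediate progenitor markers had 3 higher calls of 6 (50.0%). These were Neurog1 (0.96 ± 0.10), Gadd45g, a stress-induced growth regulator (0.67 ± 0.12), and Neurog2 (0.52 ± 0.08). Eomes did not pass (0.10 ± 0.08). Young neuron markers had 1 higher call, Tbr1 (0.34 ± 0.08), and 4 lower calls, Neurod6, Bcl11b, Fezf2 and Map2 (-0.76 to -0.21). The Map2 call ended without IgG replicate 2 or 3 or any 1 of the 3 Pum2 arrays, and with the 6 precipitate arrays alone (adjusted p = 0.0633). RNA of other cells was in the precipitates too. Of 10 endothelial markers 4 were higher, led by the tight-junction gene Cldn5 (1.001 ± 0.11), and 1, Egfl7, was lower (-0.39 ± 0.12). Meningeal markers had 6 higher calls of 9, including the matrix proteoglycan gene Dcn (0.81 ± 0.09). Of 7 Cajal-Retzius markers 2 were higher, Calb2 (1.23 ± 0.12) and Trp73 (0.83 ± 0.08). Ganglionic eminence markers, 8 of 9 measured, had Dlx5 higher (1.14 ± 0.22) and Gad2 lower (-0.41 ± 0.11). The log2 of the summed linear signal of the endothelial markers ran from 11.52 to 11.63 with Pum2 and from 10.94 to 11.32 with IgG. For the meningeal list it ran from 11.04 to 11.14 and from 10.49 to 10.74. In microglial markers 2 of 10 were higher, and that sum ran from 9.58 to 9.61 with Pum2 and 9.32 to 9.51 with IgG. Of 9 erythroid markers 5 were measured, and in limma 0 were higher and 0 lower, against 0 higher and 1 lower at an unadjusted p under 0.05. Their sum ran from 10.96 to 11.59 with Pum2 and from 11.32 to 12.12 with IgG, ranges that overlap. Of the microglial markers 5 lay below the median level, as did 5 of the ganglionic eminence, 1 of the meningeal and 1 of the Cajal-Retzius markers. A marker difference between 2 kinds of precipitate measures neither the number of cells of a type nor their RNA per cell. The part of these cell types in the gene lists below was not tested.

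Genes were ranked by their difference among those called, free of overlap between the 6 arrays and at or above the median level, 3686 higher and 1644 lower. Behind the first 10 the upper side was flat. Ranks 11 to 40 held differences from 1.35 down to 1.21 (median 1.28, 2.43-fold), and the 10 genes up to rank 100 had a median of 1.05, up to rank 200 of 0.95, up to rank 400 of 0.83 and up to rank 800 of 0.71 (1.64-fold). The last gene, at rank 3686, differed by 0.19. The lower side was steep at first and then ran close to the upper one in size. Its first 10 had a median of -3.44, ranks 11 to 40 of -1.80, and the 10 genes up to rank 100, 200, 400 and 800 of -1.18, -0.95, -0.76 and -0.51.

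**Figure D1:**
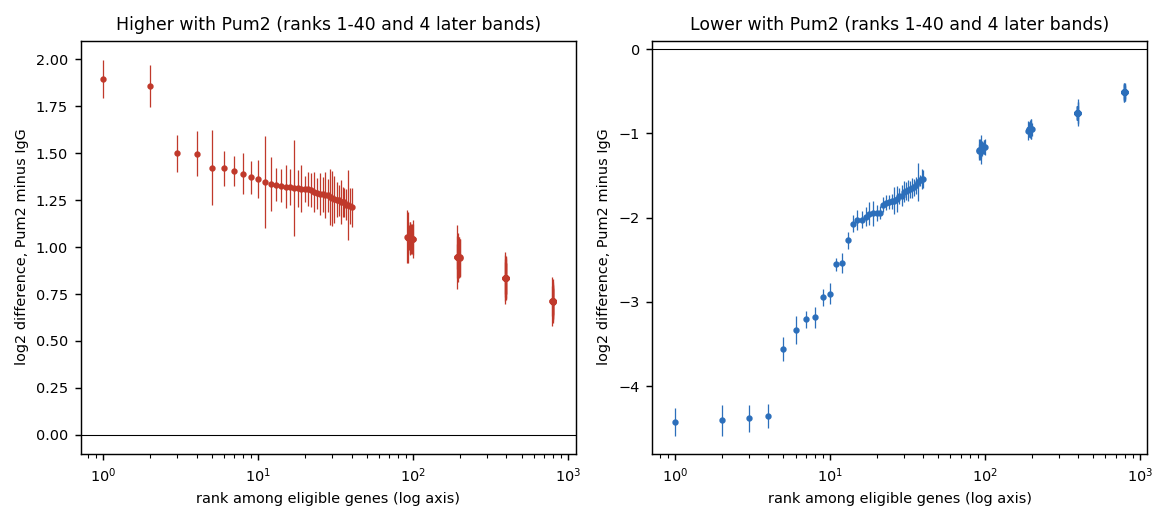
Log2 difference between Pum2 and IgG precipitates (vertical axis) against rank (log axis) for ranks 1 to 40 and 4 later bands of 10 genes, higher genes left and lower genes right. Points are genes and bars are ± SE with 3 arrays per group, and the 2 vertical axes differ. The higher genes lie in a narrow range from 1.90 to 0.71, whereas the lower ones start at -4.43 and reach -1.54 by rank 40.

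Ranks 11 to 40 on the higher side covered enzymes, membrane proteins and regulators of transcription. Cpox, which catalyses a late step of haem synthesis in mitochondria, read 8.43, 8.42 and 8.48 with Pum2 and 7.18, 6.95 and 7.20 with IgG. Every Pum2 array stood over a full log2 unit above every IgG array. The difference was 1.33 ± 0.09 (adjusted p = 5.71e-06), and input lay near IgG, at 7.29. Mnt, a repressor that competes with Myc for their partner Max, read 8.77, 8.89 and 8.93 against 7.48, 7.56 and 7.57, again with no overlap (1.33 ± 0.09). Ncstn, a subunit of the gamma-secretase that releases the active Notch fragment, read 10.41, 10.44 and 10.62 against 9.19, 9.29 and 9.27 (1.24 ± 0.08, adjusted p = 5.6e-06). Bcl2l1, the gene of the survival factor Bcl-xL, read 8.75, 8.93 and 8.88 against 7.60, 7.61 and 7.63. Its IgG arrays agree within 0.03, and the Pum2 arrays are all more than a log2 unit higher (1.24 ± 0.08).

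Others of these ranks were Crmp1, a cytoskeletal mediator of semaphorin signals in growth cones (1.28 ± 0.09), Fto, an RNA demethylase (1.23 ± 0.08), Mark4, a kinase of microtubule-associated proteins (1.25 ± 0.09), Atg7, the enzyme that activates autophagy conjugation (1.25 ± 0.08), and Rcc1, the nucleotide exchange factor of the nuclear transport GTPase Ran (1.21 ± 0.10). Stom, a membrane scaffold protein, was among the least even of these 30. It read 7.60, 7.95 and 7.97 with Pum2 and 5.91, 6.56 and 7.02 with IgG, so that the groups stayed apart although IgG spread over more than a log2 unit (1.35 ± 0.25, adjusted p = 0.00209). Input differed among these genes. For Emc10, a subunit of the complex that inserts membrane proteins, Pum2 exceeded IgG by 1.31 ± 0.07 but input by 0.22, since IgG lay below input. For the linker histone genes H1f1 and H1f5 the Pum2 precipitate was level with input (differences 0.06 and 0.04) while it exceeded IgG by 1.24 ± 0.12 and 1.22 ± 0.19. For Dleu7, in contrast, Pum2 exceeded IgG by 1.31 ± 0.12 and input by 1.28. Comparisons with input share the Pum2 arrays with the comparison to IgG.

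Further down the ranking the differences were smaller. Among the 10 genes up to rank 100 stood Ctsb, a lysosomal protease that read 11.05, 11.13 and 11.12 with Pum2 and 10.03, 10.03 and 10.09 with IgG (1.05 ± 0.07, adjusted p = 5.24e-06). Each group is tight, and the 2 lie close to a full log2 unit apart. Unc5a, a netrin receptor of growing axons, stood beside it (1.05 ± 0.08), as did Aacs, which activates acetoacetate for lipid synthesis (1.04 ± 0.10). Among those up to rank 200 were Sik1, a kinase of the salt-inducible family (0.95 ± 0.09), Atg2a, a lipid-transfer protein of autophagosome growth (0.95 ± 0.09), and Cyba, a subunit of the NADPH oxidase, whose Pum2 level did not exceed input (0.95 ± 0.11 over IgG, -0.09 over input). Among those up to rank 400 were the cortical transcription regulator Lmo3 (0.83 ± 0.08) and the histone gene H2ax, which was level with input (0.83 ± 0.08 over IgG, 0.00 over input). Sox21, a factor of neural progenitors, also stood there (0.83 ± 0.10, and 0.37 on the mean of its features). Among those up to rank 800 came Mlst8, a shared subunit of both mTOR complexes (0.71 ± 0.08), Sez6, a membrane protein of dendrites (0.71 ± 0.07), and Syn2, a synaptic vesicle protein (0.71 ± 0.09). Sez6 read 11.01, 11.03 and 11.03 against 10.29, 10.24 and 10.39.

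On the lower side, ranks 11 to 40 held long noncoding RNAs next to a set of coding transcripts. Spop, the substrate adaptor of a cullin ubiquitin ligase, stood first among them. It read 8.83, 8.98 and 8.76 with Pum2, 11.38, 11.49 and 11.38 with IgG and 10.56 on average in input. IgG was thus the highest of the 3 kinds of RNA and Pum2 the lowest (Pum2 minus IgG -2.55 ± 0.08, 5.87-fold lower, adjusted p = 9.88e-08). Rab26os and Epb41l4aos, both noncoding RNAs from the strand opposite a coding gene, differed by -2.27 ± 0.10 and -2.03 ± 0.12. The noncoding RNAs Rmst, which is known from neurogenesis, and Miat differed by -1.78 ± 0.15 and -1.54 ± 0.12, and Dleu2, the host of a microRNA pair, by -1.85 ± 0.09. For Rmst, the mean of its features gave -0.94 in place of the single feature's value.

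Among the coding genes of these ranks were Gtf2a2, a subunit of the general transcription factor TFIIA (-1.94 ± 0.08), Ggps1, which makes the isoprenoid for lipid anchors of small GTPases (-1.74 ± 0.09), and Bag1, a co-chaperone of Hsp70. Bag1 read 8.23, 8.41 and 8.46 with Pum2 and 10.25, 10.19 and 10.10 with IgG. All Pum2 arrays lay more than a log2 unit below all IgG arrays (-1.81 ± 0.08, adjusted p = 1.04e-06). Wasf3, an activator of actin branching, and Iglon5, a neuronal adhesion molecule, were lower than IgG by the same measure (-1.65 ± 0.12 and -1.66 ± 0.10) but nearer to input (Pum2 minus input -0.78 and -0.65). Phxr4, a repeat-containing transcript, differed from IgG by -1.95 ± 0.14 and from input by 0.25, since only its IgG arrays were high. The 10 lower genes up to rank 100 held B2m, the light chain of class I histocompatibility molecules (-1.19 ± 0.13), and Cep83, which anchors centrioles for cilium growth (-1.16 ± 0.08). Those up to rank 200 held Zeb1, a repressor of epithelial and neuronal differentiation genes (-0.97 ± 0.11), and Tmsb4x, an actin-sequestering peptide (-0.95 ± 0.12). Those up to rank 400 held Birc5, the survivin of the mitotic chromosomal passenger complex (-0.76 ± 0.08). Those up to rank 800 held Blm, a helicase of recombination repair, which was lower than IgG (-0.51 ± 0.10) and not lower than input (0.17).

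The genes were then grouped into 71 classes by name pattern or by list, of 10 to 1408 genes each and 5753 genes together. Set against brighter genes, 30 classes had more than 34.1% called higher, 18 had more than 18.0% called lower, and 3 had both. Set against all genes these counts were 52, 33 and 22. The median of 34 classes lay above that of brighter genes, 0.116, and that of 51 above the median of all genes. In 26 classes the sign of the median turned under at least 1 of 3 other scalings of the arrays, and 25 of these had medians within 0.1 of 0, for which no direction is given below. The other was that of microRNA precursors. Counts of calls moved with the scaling too. In 24 classes the higher calls became over 1.5 times as many under at least 1 of the 3 scalings, and in 23 over 1.5 times fewer. After centring on brighter genes, the 22 higher heat shock genes given below became 13, the 23 higher Rab genes 14, the 12 higher cadherins 6 and the 14 higher tubulin, actin and neurofilament genes 8. The direction with more calls turned in 17 classes: opposite-strand noncoding RNAs, olfactory and related receptors, mitochondrial ribosomal proteins, mitochondrial carriers, respiratory complexes II to V, core splicing factors, SR and hnRNP proteins, Zfp genes, homeobox factors, G proteins with Rgs genes, potassium channels, GABA and glutamate receptors, Tmem genes, DNA repair, E2 enzymes, RING finger and Trim proteins, and the Pumilio silencing machinery. Class counts are descriptions of these arrays beside the background and carry no test of the class.

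**Figure D2:**
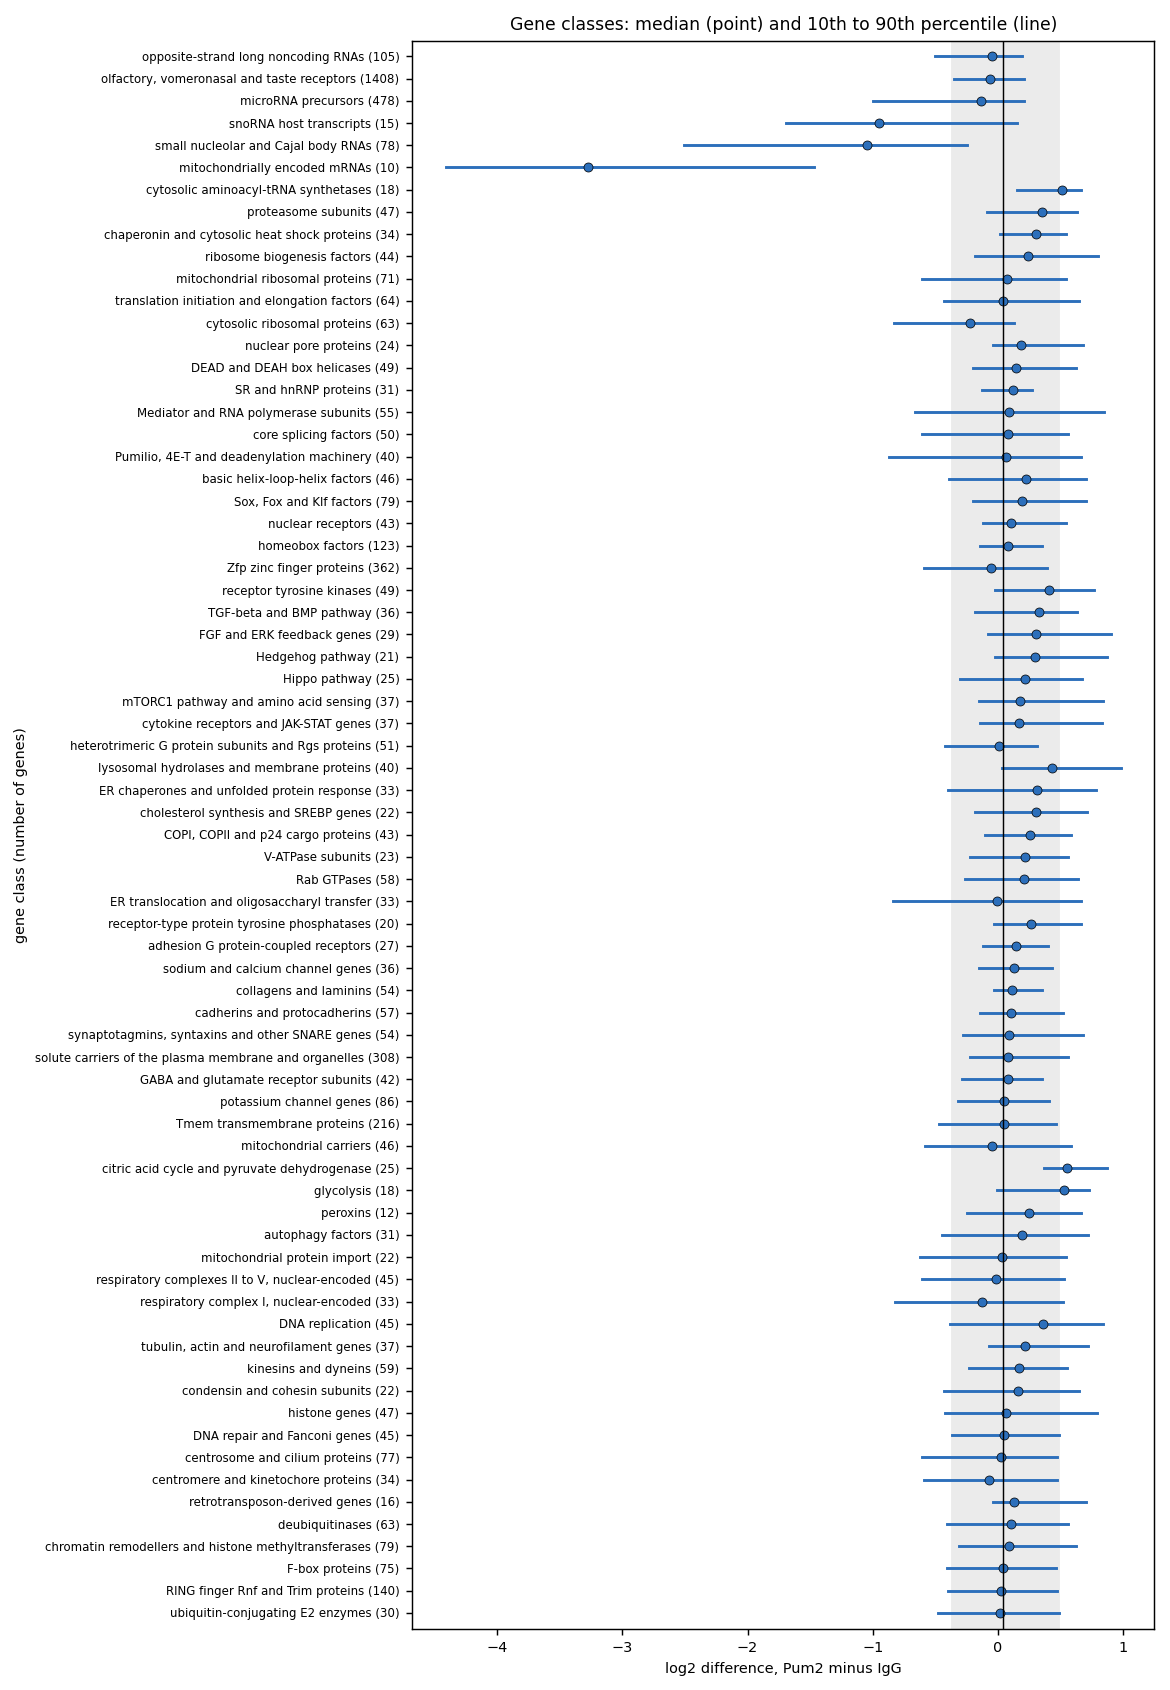
Log2 difference between Pum2 and IgG precipitates (horizontal axis) for the 71 gene classes, with the number of genes in brackets. Points are medians and lines span the 10th to 90th percentile of a class; the vertical line is the median of all 22180 genes (0.043) and the shaded band their 10th to 90th percentile (-0.37 to 0.49). Metabolic enzymes, tRNA synthetases and lysosomal genes lie furthest right, and mitochondrially encoded and small nucleolar RNAs furthest left.

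Enzymes of central metabolism were higher with Pum2 nearly throughout. In the citric acid cycle with pyruvate dehydrogenase, where pyruvate is oxidised, 23 of 25 measured genes (26 listed) were higher and 0 lower in limma, 0 lower also at an unadjusted p under 0.05, with a median of 0.55. In all 25 the 3 Pum2 arrays stood above the 3 IgG arrays, against 25.9% of all genes. Idh3a, the catalytic subunit of the NAD-dependent isocitrate dehydrogenase, read 9.84, 9.65 and 9.88 with Pum2 and 8.85, 8.46 and 8.81 with IgG. The lowest Pum2 array is above the highest IgG array by more than the range of either group (1.08 ± 0.11, adjusted p = 6.51e-05). Mdh2, the mitochondrial malate dehydrogenase, read 11.56, 11.48 and 11.65 against 10.81, 10.50 and 10.72 (0.89 ± 0.09). Pdhx and Dld, which hold and reoxidise the pyruvate dehydrogenase complex, differed by 0.89 ± 0.08 and 0.84 ± 0.09. The 2 genes that did not pass, named here for that reason after their values were seen, were Sucla2 (0.20 ± 0.11, adjusted p = 0.19) and Pdhb (0.15 ± 0.07, adjusted p = 0.141). Against input, the class had a median of 0.51 in the Pum2 precipitate and of -0.22 in IgG, 2 comparisons that share the input arrays.

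In glycolysis, 12 of 18 measured genes (21 listed) were higher in limma and 0 lower, 0 lower also without the adjustment, with a median of 0.53. Pfkl, a form of the committing enzyme phosphofructokinase, read 9.04, 8.99 and 9.08 against 7.96, 7.80 and 8.06, close to a full unit apart in every pair of arrays (1.10 ± 0.09, adjusted p = 1.44e-05). Pgk1, which makes the first ATP of the pathway, differed by 0.77 ± 0.12, and the lactate transporter Slc16a3 by 0.71 ± 0.12. Cholesterol synthesis had 10 of 22 measured genes (27 listed) higher and 1 lower. Mvd, which makes isopentenyl pyrophosphate, led with 0.94 ± 0.09, and the regulator gene Srebf1 followed with 0.75 ± 0.11. The lower one was Sc5d (-0.33 ± 0.08), the sterol C5 desaturase. Among peroxins, the import factors of peroxisomes, 6 of 12 were higher, such as the receptor Pex5 (0.77 ± 0.12). Pex2 and Pex13 were called lower, and both calls ended without IgG replicate 2, Pum2 replicate 2 or Pum2 replicate 3, that of Pex2 also without IgG replicate 3 and that of Pex13 without Pum2 replicate 1.

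The lysosome, which degrades macromolecules, had most of its genes higher too. Of 40 measured hydrolases and membrane proteins (46 listed) 25 were higher and 1 lower, with a median of 0.43. Gaa, the lysosomal glucosidase that degrades glycogen, read 8.69, 8.85 and 8.72 with Pum2 and 7.45, 7.66 and 7.72 with IgG. The groups were about a unit apart, and input, at 7.79, was near IgG (1.14 ± 0.09, adjusted p = 1.3e-05). Ctsf, a cathepsin, differed by 1.13 ± 0.11 and Arsa, the arylsulfatase of sulfatide breakdown, by 0.99 ± 0.11. The lower call, Ids (-0.30 ± 0.09), ended without IgG replicate 2 or 3 or Pum2 replicate 1 or 3. The proton pump that acidifies the lysosome, the V-ATPase, had 10 of 23 subunits higher and 2 lower. Atp6ap2, an accessory subunit, differed by 0.73 ± 0.10. The small subunits Atp6v1g2 (-1.10 ± 0.11) and Atp6v0e (-0.92 ± 0.12) were the lower ones. Autophagy factors had 15 of 31 higher, with Atg7 and Atg2a as above and the cargo receptor Sqstm1 (0.86 ± 0.11), and 5 lower, Atg4a, Atg4c, Atg5, Becn1 and Gabarap (-0.80 to -0.24), the last of them named after its value was seen.

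**Figure D3:**
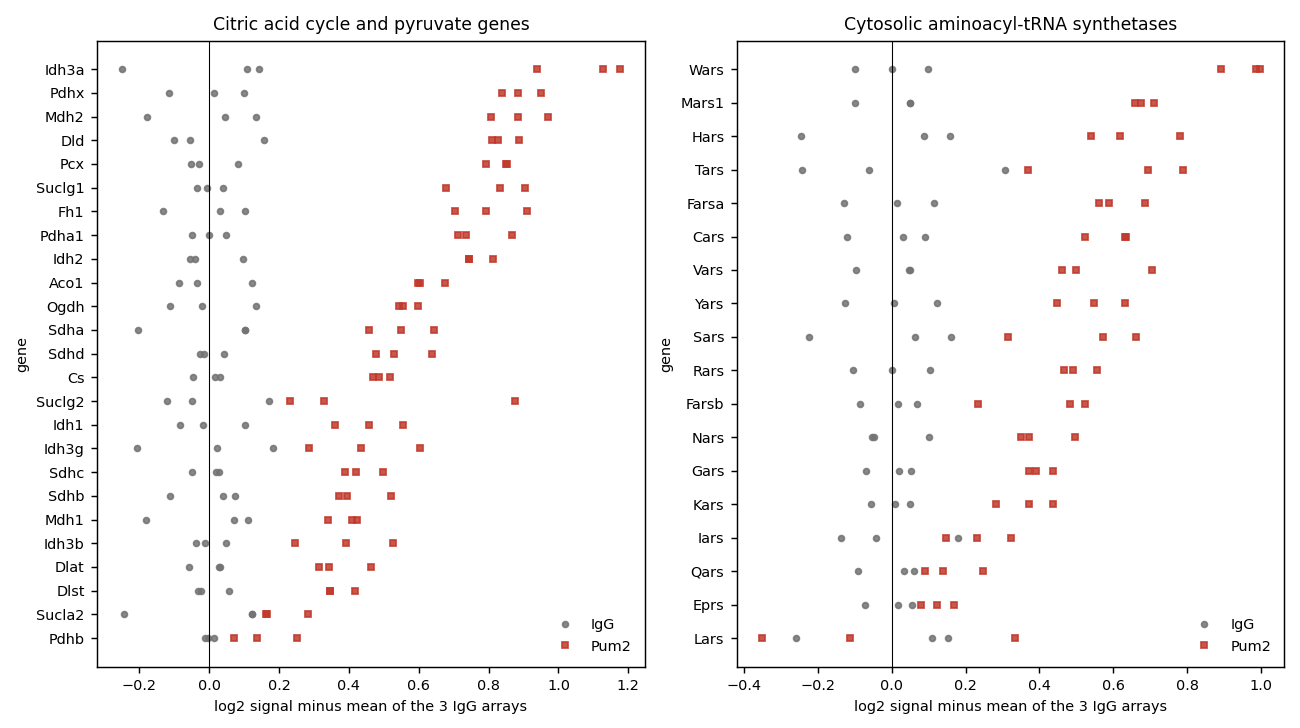
Log2 signal of each array minus the mean of the 3 IgG arrays of that gene (horizontal axis), for the 25 genes of the citric acid cycle and pyruvate dehydrogenase (left) and the 18 cytosolic aminoacyl-tRNA synthetases (right). Circles are IgG arrays and squares Pum2 arrays, 3 each. The squares lie right of the circles in all 25 genes on the left and in 16 of 18 on the right.

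Classes of protein synthesis and folding differed. Cytosolic aminoacyl-tRNA synthetases, the enzymes that charge tRNAs with amino acids, had 14 of 18 genes higher and 0 lower in limma, 0 lower also at an unadjusted p under 0.05, with a median of 0.51. Wars, which charges tryptophan, read 11.20, 11.19 and 11.09 with Pum2 and 10.20, 10.10 and 10.30 with IgG. The groups do not overlap, and they differ by 0.96 ± 0.08 (adjusted p = 1.53e-05). Mars1 and Hars, for methionine and histidine, differed by 0.68 ± 0.08 and 0.65 ± 0.12. The 4 that did not pass were Iars (0.23), Qars (0.16), Eprs (0.12) and Lars (-0.04), named after their values were seen. Proteasome subunits had 31 of 47 higher and 1 lower, with a median of 0.35. Quantile normalization of the genes gave 20 higher and 4 lower, and centring on brighter genes 21 and 2. Psmb3, of the catalytic core, read 6.96, 6.91 and 7.13 against 6.13, 6.08 and 6.13 (0.89 ± 0.09), and the lower subunit was Psmd11, of the lid (-0.38 ± 0.07). Against input the proteasome median was 0.05 in the Pum2 precipitate and -0.25 in IgG. Chaperonins and cytosolic heat shock proteins had 22 of 34 higher, with Stip1, which links Hsp70 to Hsp90, as an example (0.54 ± 0.12), and 2 lower, Bag1, given above, and Dnajb4 (-0.53 ± 0.12, and -0.33 after quantile normalization over all features). The related co-chaperone gene Bag4 was higher by 1.15 ± 0.07, and by 0.42 on the mean of its features.

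Ribosome biogenesis factors, which act in the nucleolus, had 20 of 44 higher and 2 lower, for example Rrp1 (0.92 ± 0.10) and the exosome subunit Exosc1 (0.82 ± 0.07). Ribosomal proteins themselves did not follow. Of 63 cytosolic ribosomal protein genes 30 were lower and 3 higher, with a median of -0.22. Rps12 read 11.66, 11.72 and 11.81 with Pum2, against 12.90 on each IgG array and 13.36 in input (-1.17 ± 0.07, adjusted p = 3.96e-06), so that IgG was below input and Pum2 lower again. Rpl29 differed by -1.23 ± 0.08. Rps16 and Rpl34 were higher (0.87 ± 0.13 and 0.87 ± 0.11). Probes of ribosomal protein and other near-identical genes can cross-hybridise, which makes single members less certain. Translation factors had 20 of 64 higher (31.2%) and 10 lower (15.6%), near the shares of brighter genes (34.1% and 18.0%). Eif6, which keeps the large ribosomal subunit free, was higher (0.82 ± 0.07), as were Eif2b2 (0.77 ± 0.09) and the stress kinase Eif2ak3 (0.78 ± 0.11). The scaffold Eif4g2, which supports cap-independent initiation, was lower (-0.77 ± 0.07), and so was the repressive cap-binding protein gene Eif4e2 (-0.77 ± 0.11).

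Several large complexes had calls in both directions. Respiratory complex I, the entry of electrons from NADH, had 6 nuclear-encoded subunits higher and 11 lower of 33. The core subunits Ndufs7 and Ndufv1, which bear redox centres, were higher by 0.92 ± 0.08 and 0.73 ± 0.11. Ndufc1, a small accessory subunit, read 5.86, 5.99 and 5.89 with Pum2 and 7.48, 7.48 and 7.43 with IgG. Both groups are tight and lie more than a log2 unit apart (-1.56 ± 0.07, adjusted p = 7.67e-07). Against input the complex I median was -0.76 with Pum2 and -0.72 with IgG, both below input. Complexes II to V had 14 of 45 higher, such as Cyc1 (0.61 ± 0.07) and Uqcrc1 (0.55 ± 0.10) of complex III, and 13 lower, such as the small subunits Cox7b (-1.28 ± 0.14) and Cox7a2 (-1.03 ± 0.07) of complex IV. Mitochondrial ribosomal proteins had 19 of 71 higher and 17 lower. Mrps27 and Mrpl42 marked the ends, at 1.28 ± 0.11 and -1.68 ± 0.10. Mitochondrial import had 6 of 22 higher (27.3%) and 4 lower (18.2%), near the shares of brighter genes, with the channel Tomm40 (0.86 ± 0.07) on one side and the small intermembrane-space chaperone Timm9 (-0.83 ± 0.09) on the other. Mitochondrial carriers, also near those shares, had 14 of 46 higher (30.4%), such as the glutamate carrier Slc25a22 (0.87 ± 0.08), and 8 lower (17.4%), such as Slc25a23 (-1.04 ± 0.07). The 10 mRNAs made inside mitochondria were all lower, with a median of -3.27, and differed from input by a median of -0.04 in IgG.

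The entry into the secretory pathway had calls in both directions as well. Of 33 measured genes (34 listed) of translocation into the endoplasmic reticulum and of oligosaccharyl transfer, 8 were higher and 10 lower, the 8 becoming 5 without IgG replicate 2 or Pum2 replicate 1. Srprb, the membrane subunit of the signal recognition particle receptor, read 7.97, 8.04 and 8.51 with Pum2 and 6.76, 6.94 and 6.80 with IgG. The arrays are a unit or more apart at their nearest, and input, at 7.85, was near Pum2 (1.34 ± 0.14, adjusted p = 8.71e-05). The oligosaccharyl transferase subunits Rpn1, Ddost and Rpn2 were higher by 0.85 ± 0.10, 0.72 ± 0.07 and 0.67 ± 0.07. Sec61g, the small subunit of the translocation channel, read 9.65, 9.42 and 9.68 against 10.96, 10.89 and 10.86 (-1.32 ± 0.09). The signal recognition particle proteins Srp19 and Srp14 were lower as well (-0.90 ± 0.13 and -0.84 ± 0.09). Chaperones and regulators of the unfolded protein response had 18 of 33 measured (38 listed) higher and 7 lower, the 7 becoming 4 without IgG replicate 3, Pum2 replicate 1 or Pum2 replicate 3. Syvn1, the ubiquitin ligase that removes misfolded proteins, was higher by 1.14 ± 0.08 and its partner Os9 by 0.92 ± 0.08. Ddit3, the stress factor CHOP, was lower (-0.76 ± 0.07). Coat and cargo proteins of COPI and COPII vesicles had 21 of 43 higher, led by Sec24c (0.85 ± 0.09), and 1 lower, the p24 protein Tmed2 (-0.55 ± 0.07), a call that ended on the mean of its features (-0.31, adjusted p = 0.129). Rab GTPases had 23 of 58 higher, such as Rab5b of early endosomes (1.14 ± 0.12) and Rab3a of synaptic vesicles (0.99 ± 0.09), and 6 lower, such as Rab13 (-0.77 ± 0.08).

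**Figure D4:**
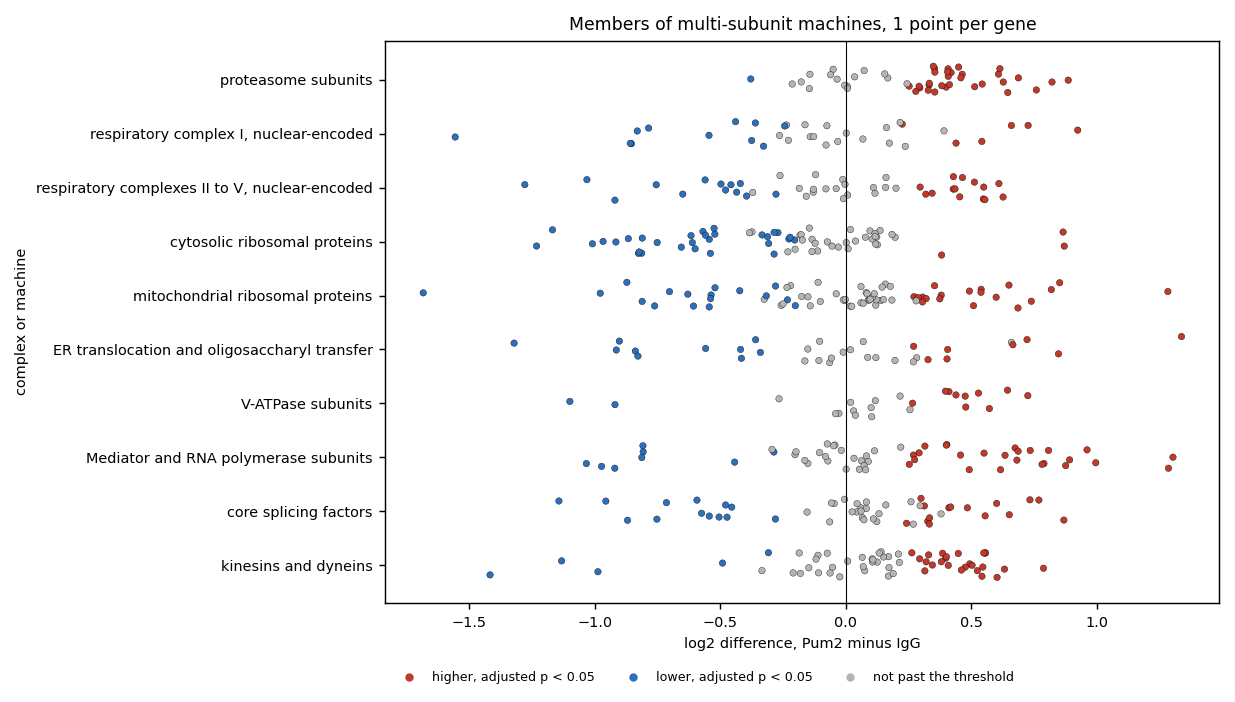
Log2 difference between Pum2 and IgG precipitates (horizontal axis) for every measured gene of 10 machines (rows), with points spread vertically only to separate them. Red points are higher and blue points lower at a limma adjusted p under 0.05, and grey points did not pass. Proteasome subunits have 31 red and 1 blue point on the deposited scale, whereas complex I has 6 red and 11 blue, and cytosolic ribosomal proteins 3 red and 30 blue.

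Signalling classes differed in their share of higher calls. Of 49 measured receptor tyrosine kinases (51 listed) 25 were higher and 1 lower, with a median of 0.41. Erbb2, the shared partner of the neuregulin receptors, read 9.86, 10.01 and 9.91 with Pum2 and 8.93, 8.95 and 8.97 with IgG, and 8.97 in input. IgG and input were alike for it, and Pum2 was about a unit above both (0.98 ± 0.08, adjusted p = 2.06e-05). Fgfr2, a receptor of fibroblast growth factors in cortical precursors, differed by 0.81 ± 0.09 and Met, the receptor of hepatocyte growth factor, by 0.82 ± 0.11. The lower call was Igf1r (-0.33 ± 0.10), and it ended without IgG replicate 2 or 3 or any 1 of the 3 Pum2 arrays. The feedback genes of FGF and ERK signalling had 16 of 29 measured (30 listed) higher and 2 lower. Dusp4 and Dusp1, phosphatases that switch MAP kinases off, were higher by 1.13 ± 0.09 and 0.95 ± 0.08, and Spry1, an inhibitor of receptor signalling, by 0.89 ± 0.12.

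In the TGF-beta and BMP pathway 16 of 36 genes were higher and 2 lower. The ligand antagonist Nog led (1.10 ± 0.12), followed by the receptor Bmpr1b (0.85 ± 0.09), whereas the receptor Bmpr2 (-0.45 ± 0.06) and the transducer Smad5 (-0.34 ± 0.08) were lower. Hedgehog genes had 10 of 21 measured (22 listed) higher and 2 lower. Sufu, which restrains the Gli factors, read 10.33, 10.41 and 10.25 against 9.15, 9.21 and 9.25 (1.13 ± 0.07, adjusted p = 5.54e-06). Gli2 and the receptor Ptch1 were higher too (0.90 ± 0.08 and 0.87 ± 0.14). Smo, the membrane transducer, read 9.74, 9.92 and 9.82 against 10.85, 10.96 and 10.98, about a unit lower on every array (-1.10 ± 0.11, adjusted p = 6.66e-05). Scube3, the other lower one, turned to 0.030 on the mean of its features. Hippo genes had 7 higher and 7 lower calls after quantile normalization of the genes or centring on brighter genes. On the deposited scale they had 12 of 25 measured (27 listed) higher, such as the adaptor Sav1 (0.98 ± 0.09), and 5 lower, Yap1, Tead1, Tead2, Nf2 and Amotl1, by small amounts (-0.35 to -0.25). Tead2 was named after its value was seen, and the Nf2 call ended without Pum2 replicate 1. The Yap1 call ended without any 1 of the IgG arrays or Pum2 replicate 3, and the Amotl1 call without any 1 of the IgG arrays or Pum2 replicate 1 or 3. In the mTORC1 pathway 16 of 37 measured (38 listed) were higher, such as the activating GTPase Rheb (0.95 ± 0.07) and the amino acid sensor subunit Nprl2 (0.94 ± 0.08). Cytokine receptors and JAK-STAT genes had 13 of 37 measured (42 listed) higher (35.1%), near the 34.1% of brighter genes. Cntfr, the receptor subunit of ciliary neurotrophic factor, is an example (0.88 ± 0.08). Heterotrimeric G proteins and Rgs genes had 5 of 51 higher and 11 lower, but 15 higher and 8 lower after quantile normalization over all features. Gnb4, a beta subunit, was higher by 1.28 ± 0.09, and Gng5, Gng10 and Gng3, gamma subunits, were lower (-0.93 ± 0.12, -0.74 ± 0.10 and -0.72 ± 0.12). The other higher ones were Gna11, Gnb5, Rgs3 and Gnai3 (0.31 to 0.54), the last named after its value was seen.

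Transcription factors differed by family. Sox, Fox and Klf factors had 31 of 79 higher and 6 lower, for example Foxp4 (0.89 ± 0.07) and Sox8 (0.85 ± 0.10), with Foxp2, of deep-layer neurons, among the lower ones (-0.59 ± 0.08). Basic helix-loop-helix factors had 17 of 46 higher and 5 lower. Twist1, a mesenchymal factor that also stands in the meningeal list, was higher by 1.09 ± 0.09. The proneural factors Neurog1 and Neurog2, of the intermediate progenitor list, were higher too (0.96 ± 0.10 and 0.52 ± 0.08). The lower ones were Neurod4, Neurod6, Nhlh1 and Nhlh2, factors of differentiating neurons, and Mxd4, named after its value was seen (-0.85 to -0.51). Nuclear receptors had 8 of 43 higher, led by the immediate early gene Nr4a1 (1.17 ± 0.10) and the clock genes Nr1d2 and Nr1d1 (0.93 ± 0.08 and 0.78 ± 0.10), and 2 lower, Thra and Nr2e1 (-0.60 ± 0.08 and -0.35 ± 0.07). Homeobox factors, of which 36 of 123 lay at or above the median level, had 13 higher (61 after quantile normalization over all features and 9 after centring on brighter genes), for example Pbx3 (0.85 ± 0.10), and 8 lower (7 and 10), for example Cux1 (-0.82 ± 0.10, and -0.44 on the mean of its features). Of 362 Zfp zinc finger genes 49 were higher and 85 lower, 23.5% in the lower direction against 18.0% of brighter genes. Quantile normalization over all features turned this balance to 96 higher and 69 lower. Zfp362 was higher by 1.31 ± 0.09 and Zfp763 by 0.98 ± 0.08, and Zfp932 (-2.02 ± 0.37) and Zfp972 (-1.44 ± 0.24) were lower. These genes have close relatives on the array, with the same limit as for ribosomal proteins.

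Nuclear machines were mixed, and 34.1% higher and 18.0% lower among brighter genes stand beside their counts. Mediator and RNA polymerase subunits had 25 of 55 higher and 8 lower. Polr2f, a small subunit shared by all 3 nuclear polymerases, read 11.41, 11.46 and 11.46 with Pum2 and 10.32, 10.04 and 10.05 with IgG, and Med4, of the Mediator middle, read 9.63, 9.71 and 9.68 against 8.39, 8.27 and 8.51. Both lie a unit or more above IgG on every array (1.30 ± 0.09 and 1.29 ± 0.08). Med30 and Med21 were about a unit lower (-1.03 ± 0.10 and -0.97 ± 0.08). Core splicing factors had 15 of 50 higher, among them Sf3a1, Sf3a2 and Sf3b2 of the U2 particle (0.65 to 0.77), and 13 lower, among them Lsm5 (-1.14 ± 0.10) and Lsm7 (-0.75 ± 0.08) of the Sm-like ring. Lsm1, which takes part in decapping, was higher (0.87 ± 0.11). SR and hnRNP proteins had few calls, 4 of 31 higher and 1 lower. DEAD and DEAH box helicases had 18 of 49 higher (36.7%), such as Dhx35 (0.78 ± 0.07), and 3 lower (6.12%), led by Ddx5 (-1.80 ± 0.16). Nuclear pore proteins had 8 of 24 higher (33.3%), near the share of brighter genes. In limma 0 were lower, 0 also without the adjustment, and Pom121 (0.85 ± 0.08) and Aaas (0.82 ± 0.08) were ahead. Chromatin remodellers and histone methyltransferases had 26 of 79 higher (32.9%), again near that share, and 10 lower (12.7%). Smarcb1 and Smarcd1 were higher (0.76 ± 0.09 and 0.76 ± 0.08) and Smarca2 lower (-0.61 ± 0.08).

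Genes of the cell cycle moved in both directions. DNA replication had 24 of 45 measured genes (46 listed) higher and 5 lower, with a median of 0.36. Gmnn, the inhibitor of origin licensing, read 11.30, 11.50 and 11.29 with Pum2 and 10.45, 10.20 and 10.44 with IgG, and its target Cdt1 read 9.40, 9.46 and 9.47 against 8.39, 8.39 and 8.56. In both genes the lowest Pum2 array is well above the highest IgG array (0.998 ± 0.09 and 0.99 ± 0.08). Pold2, of the lagging-strand polymerase, differed by 0.99 ± 0.07. Orc6 and Orc4, of the origin recognition complex, the polymerase epsilon subunits Pole3 and Pole4, and Rpa3, of the single-strand binding protein, were lower (-0.89 to -0.48), Orc4 being named after its value was seen. Centromere and kinetochore proteins had 9 of 34 higher and 12 lower, the 9 becoming 5 without IgG replicate 1 or 2. Bub3 was higher (0.87 ± 0.12), and its partner Bub1, a checkpoint kinase, was lower (-1.01 ± 0.10), as was Cenpa, the centromeric histone (-0.72 ± 0.08). Condensin and cohesin genes had 6 of 22 higher and 3 lower, with Ncaph at 0.66 ± 0.08 and Smc4 at -0.50 ± 0.11. Repair genes had 9 of 45 higher and 5 lower, with Ercc3 at 0.79 ± 0.09 and Ercc6 at -0.54 ± 0.09. Centrosome and cilium genes had 20 of 77 higher, with Bbs2 as an example (0.78 ± 0.12), and 20 lower, with Cep290 as an example (-0.93 ± 0.11). Histone genes had 10 of 47 higher and 4 lower, with the cross-hybridisation limit of close relatives.

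Motor genes of the cytoskeleton had more higher than lower calls, as did brighter genes as a whole (34.1% and 18.0%). Kinesins and dyneins together had 25 of 59 higher (42.4%) and 5 lower (8.47%). Higher were, for example, Kif22, a motor of mitotic chromosomes (0.79 ± 0.09), and the dynactin subunit Dctn2 (0.63 ± 0.08). The 5 lower ones included 4 dynein light chains, Dynll1, Dynll2, Dynlt3 and Dynlrb1, and Kif3c, named after its value was seen. Dynll1 read 7.43, 7.34 and 7.33 with Pum2 and 8.96, 8.79 and 8.60 with IgG, more than a unit apart (-1.42 ± 0.13, adjusted p = 2.98e-05). Tubulin, actin and neurofilament genes had 14 of 37 higher (37.8%), near the share of brighter genes, and 2 lower (5.41%). The 14 became 8 without IgG replicate 2 or Pum2 replicate 1, and 9 without Pum2 replicate 3. Tubb6 and Dpysl4 led (1.02 ± 0.14 and 0.93 ± 0.08). Dpysl4 is counted in this class without being a tubulin, actin or neurofilament gene.

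Most classes of channels, transporters and adhesion molecules had a smaller share of higher calls than brighter genes (34.1%). Most of these classes also lay lower in signal. Solute carriers had 67 of 308 higher and 15 lower, for example the phosphate transporter Slc20a2 (1.17 ± 0.10) and the glutamine transporter Slc38a3 (1.15 ± 0.11). Tmem genes had 47 of 216 higher and 35 lower. Potassium channel genes had 13 of 86 higher and 9 lower, with Kcnk5 as an example (0.87 ± 0.08), and sodium and calcium channel genes 7 of 36 higher and 2 lower. GABA and glutamate receptor genes had 6 of 42 higher, led by Grm2 (0.83 ± 0.09), and 5 lower, Gria2, Grik2, Grik5, Gabra2 and, named after its value was seen, Gabbr1. The Gabra2 call ended without any 1 of the IgG arrays or Pum2 replicate 1 or 3. Gria2, the AMPA receptor subunit that limits calcium entry, read 8.01, 7.74 and 7.61 against 8.90, 8.80 and 9.03, with input at 8.26 (-1.13 ± 0.11). Synaptic vesicle and SNARE genes had 17 of 54 higher (31.5%), such as Sv2b (1.17 ± 0.10), and 7 lower (13.0%), such as Stx7 (-0.80 ± 0.07). Receptor-type tyrosine phosphatases had a larger share than brighter genes, 10 of 20 higher (50.0%), and 1 lower, with Ptpru at 0.81 ± 0.08. Adhesion G protein-coupled receptors had 8 of 27 higher and 0 lower in limma, 0 lower also without the adjustment, including the planar polarity genes Celsr2 and Celsr1 (0.53 ± 0.08 and 0.43 ± 0.09). The 8 became 5 without IgG replicate 1 or Pum2 replicate 1 or 3, and 4 without Pum2 replicate 2. Other scalings did give lower calls. There were 5 higher and 2 lower after quantile normalization of the genes, and 4 and 2 after centring on brighter genes. Quantile normalization over all features gave 15 and 1. Cadherins and protocadherins had 12 of 57 higher and 1 lower, the 12 becoming 7 without IgG replicate 2. Collagens and laminins had 9 of 54 higher and 1 lower, the 9 becoming 5 without IgG replicate 1 or 2 and 4 without Pum2 replicate 1. Those 9 also became 3 after centring on brighter genes and 32 after quantile normalization over all features. Olfactory, vomeronasal and taste receptors, had 15 of 1408 higher and 80 lower (46 lower without Pum2 replicate 1). Quantile normalization over all features turned this to 157 higher and 28 lower, and 26 of the 1408 lay at or above the median level.

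Ubiquitin enzymes were close to the background. F-box proteins, the substrate receptors of cullin ligases, had 18 of 75 higher, such as Fbxo31 (1.09 ± 0.09) and Fbxo45 (1.03 ± 0.09), and 9 lower. RING finger and Trim proteins had 26 of 140 higher and 20 lower, with Rnf44 at 1.07 ± 0.08. Conjugating enzymes had 9 of 30 higher, such as Ube2t (0.94 ± 0.07), and 5 lower, Ube2j1, Ube2d1, Ube2s, Ube2e3 and, named after its value was seen, Ube2d3. Deubiquitinases had 20 of 63 higher, such as the mitochondrial Usp30 (1.11 ± 0.08), and 10 lower, such as Usp16 (-1.16 ± 0.10). Of 16 genes derived from retrotransposons 3 were higher and 1 was lower, with Pnmal1 at 0.80 ± 0.11.

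The machinery of Pumilio silencing had calls in both directions. Of 44 listed genes 40 were measured, and 15 were higher and 12 lower, or 12 and 15 after centring on brighter genes. Eif4enif1, the gene of 4E-T, read 10.21, 10.47 and 10.40 with Pum2 and 9.59, 9.48 and 9.64 with IgG, with no overlap. Within the Ccr4-Not deadenylase, the complex that shortens poly(A) tails, Cnot8 was higher (0.83 ± 0.09) and so was Cnot11 (0.72 ± 0.10). Cnot4, its ubiquitin ligase subunit, read 8.92, 8.99 and 9.11 with Pum2 and a mean of 10.02 ± 0.024 (SD, n = 3) with IgG, about a unit lower throughout (-1.01 ± 0.08, adjusted p = 1.16e-05). Pabpc1, the cytosolic poly(A)-binding protein, and Stau2, a transport protein of neuronal mRNAs, were lower (-0.97 ± 0.08 and -0.98 ± 0.07). Nanos3, of the family that binds RNA together with Pumilio proteins, was lower (-1.23 ± 0.09).

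Among noncoding RNAs, the small nucleolar RNAs and their hosts had most members lower. Small nucleolar and Cajal body RNAs, guides of RNA modification, had 58 of 78 lower and 0 higher in limma, 0 higher also without the adjustment, with a median of -1.05. Host transcripts of the Snhg kind, which carry such RNAs in their introns, had 10 of 15 lower, for example Snhg3 (-2.07 ± 0.10) and Snhg1 (-1.47 ± 0.08). Snhg6 was the exception, at 11.88, 11.99 and 11.80 with Pum2 and 11.51, 11.36 and 11.33 with IgG, level with input at 11.89 (0.49 ± 0.08). Zfas1, a host outside that name, differed by -1.81 ± 0.08. Opposite-strand long noncoding RNAs, counted only where the reference annotation calls them so, had 14 of 105 lower and 1 higher, but 11 lower and 21 higher after quantile normalization over all features. Whether a signal on such a gene comes from its own strand was not tested.

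Of 478 microRNA precursor genes 114 were lower (23.8%) and 4 higher, though only 70 of the 478 lay at or above the median level. Their median of -0.13 turned to 0.02 when all features were quantile-normalized together, a setting that gave 90 lower and 72 higher. The features read precursor or host RNA and not the mature microRNA. The miR-9 and miR-17/20 families were chosen after their values were seen, because members with nearly or wholly the same mature sequence differed. They are shown 5′ to 3′ from RefSeq on GRCm38.p6, with the seed, bases 2 to 8, in capitals.
miR-9-5p, of Mir9-1, Mir9-2 and Mir9-3: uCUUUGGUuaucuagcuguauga
miR-20a-5p, of Mir20a: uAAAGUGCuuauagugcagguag
miR-17-5p, of Mir17: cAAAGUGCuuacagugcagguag
miR-106b-5p, of Mir106b: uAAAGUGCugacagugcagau

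The first sequence is made by 3 genes, whose mature copies lie at chr3:88215613-88215635 (plus strand), chr13:83738821-83738843 (plus strand) and chr7:79505279-79505301 (plus strand). miR-9 is a microRNA of neural precursors. Mir9-1 read 6.09, 5.72 and 5.69 with Pum2, 8.70, 8.52 and 7.84 with IgG and 6.78, 6.61 and 6.55 in input. IgG was the highest and Pum2 the lowest, with no overlap (-2.52 ± 0.20, adjusted p = 1.6e-05, and -1.35 on the mean of its features). Mir9-2 read 7.69, 7.76 and 7.55 against 7.84, 8.22 and 7.87, and did not pass (-0.31 ± 0.16, adjusted p = 0.178). Mir9-3 did not pass either (-0.27 ± 0.10, adjusted p = 0.0759). The other 3 sequences share a seed, which miR-20b-5p also has. Its gene Mir20b did not pass (-0.48 ± 0.18, adjusted p = 0.0675). Mir20a, with its mature 5p copy at chr14:115044183-115044205 (plus strand), read 4.59, 4.60 and 4.63 with Pum2, 7.13, 7.27 and 6.79 with IgG and 6.76, 5.50 and 5.93 in input (-2.46 ± 0.26, adjusted p = 7.48e-05). Within 10 kb of it, Mir19a was lower, at 2.70 ± 0.15 (SD) with Pum2 and 4.70 ± 0.39 with IgG (adjusted p = 0.00142), and Mir18 was lower too (-0.76 ± 0.18), while Mir17, at chr14:115043684-115043706 (plus strand), did not pass and read 3.94 on several arrays (-0.38 ± 0.19, adjusted p = 0.183). Mir106b, at chr5:138165787-138165807 (minus strand), was lower by -0.39 ± 0.10.

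**Figure D5:**
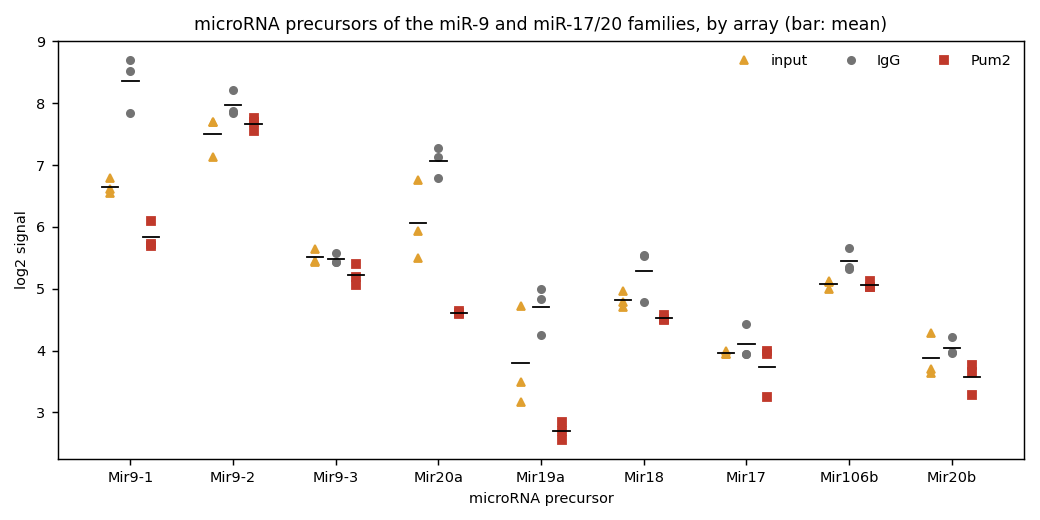
Log2 signal (vertical axis) of 9 microRNA precursor genes on the 3 input (triangles), 3 IgG (circles) and 3 Pum2 arrays (squares), with bars at the group means. The Pum2 arrays of Mir9-1 (5.69 to 6.09) and Mir20a (4.59 to 4.63) lie far below their IgG arrays, whereas those of Mir9-2 and Mir9-3 lie near them.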

How the data were processed

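Each array measured the RNA of 1 preparation of mouse embryonic cortex, in 3 groups of 3 arrays (input, IgG precipitate, Pum2 precipitate). The authors deposited log2 signals, 1 per feature, made by RMA in Affymetrix Expression Console per the submitters' processing notes; its version and any genome build: not given in the sources used here. RMA scales the arrays to each other, so a shift common to all RNA is not measured. The deposited feature values were still not alike in distribution. Quantile normalization over all features moved the median difference of all genes from 0.043 to 0.192. RMA keeps no raw brightness, so depth is not defined and precision rests on 3 arrays a group.

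Features were named from the platform annotation. Of 41345 features, 23521 had 1 symbol, 1814 several and 16010 none. Only the first were used, with the feature of the highest mean over 9 arrays for each of the 1082 genes that had more than 1. In 14 genes the features were called in opposite directions. Differences were fitted with limma 3.58.1 in R 4.3.3 (lmFit and eBayes, all 9 arrays, 3 groups, 6 residual and 3.99 prior degrees of freedom), with Benjamini-Hochberg adjustment over 22180 genes and a threshold of 0.05. The fit was tested on simulated data. An exact permutation test of 3 arrays against 3 cannot give a two-sided p below 0.1, and none was used.

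Named genes are ranks 11 to 40 and the 10 genes up to ranks 100, 200, 400 and 800 of the called, non-overlapping, brighter genes in each direction, without provisional symbols, up to 4 members per direction of each class, and cell type markers. Others are said to be named after their values were seen. The gene lists and the comparison were chosen with earlier results of these data known, and the name patterns of the opposite-strand and microRNA classes were corrected after the files were seen. Promoter and untranslated-region sequence was not used here. The labels do not say that a replicate number marks a shared preparation, and the numbers were not used to pair samples. Alternatives were other scalings, the 6 arrays alone, brighter genes alone, a trended robust prior, the mean of a gene's features, a replicate block and leaving out each array.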

Additional observations from a re-analysis of the deposited data

Results flagged for a closer look

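On the deposited scale, features outside the gene comparison were more often lower than higher with Pum2. Of 16010 features with no gene symbol, 768 (4.80%) were higher with Pum2 than with IgG and 3605 (22.5%) lower, with a median difference of -0.153. Of 1814 features with several symbols, 144 (7.94%) were higher and 455 (25.1%) lower, with a median of -0.083. The median level of both kinds, 4.82 and 5.75, lay below that of features with 1 symbol, 6.01, of which 16.9% were higher and 10.3% lower. These shares were not computed under the other scalings. Quantile normalization over all features moved the median of all genes from 0.043 to 0.192. No gene is named from these features.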

How the results depend on the processing

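The 4296 higher and 2519 lower calls became 3940 and 2324 with the 6 precipitate arrays alone, 4497 and 2637 with a trended robust prior, 4229 and 2494 with the mean of a gene's features (3 genes called in the opposite direction) and 4344 and 2330 among brighter genes alone. Scaling moved them most: 3489 and 3027 after quantile normalization of the genes, 3092 and 3495 after centring on brighter genes, and 8093 and 2143 after quantile normalization over all features, an alternative chosen after seeing the data. A 1.5-fold minimum left 1448 and 1106. Leaving out 1 array gave 3594 to 3930 higher and 2050 to 2258 lower calls. With the replicate number as a block there were 4344 and 2521, of which 4081 and 2377 were calls of the fit without it; the Map2 and Amotl1 calls ended with it (adjusted p = 0.0655 and 0.0533). Deviations from the group mean correlated above 0 in 9 of 9 same-numbered pairs of arrays and 3 of 18 others, a hint from the data. Between Pum2 and IgG the same-numbered values were 0.002, 0.125 and 0.093, and IgG replicate 1 correlated better with Pum2 replicate 3 (0.041). With the 6 arrays alone the Igf1r, Ids, Yap1, Amotl1 and Pex13 calls ended (adjusted p = 0.0503 to 0.07). Of 593 genes that the naming rule allows by rank or class, or always allows, 26 to 39 lost their call without 1 array. From these, 1, Scube3, reversed to 0.030 on the mean of its features. Cell type markers outside the ranks and classes were not checked in this way. Of 44 classes with a median of at least 0.1 either way, a limit chosen after seeing the data, 43 kept their sign under 3 scalings, and microRNA precursors turned to 0.022 under quantile normalization over all features. Dim genes had few calls in either direction, and 3 arrays a group limit the precision.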
